A study of Mus musculus with 6 samples.

Results

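Chemokines, cytokines and their receptors are described here in mouse embryonic fibroblasts (MEFs) with 1 or 2 working copies of Nipbl. The genes were chosen by name, as those of the chemokine (Ccl, Cxcl), chemokine receptor (Ccr, Cxcr), interleukin, tumor necrosis factor (Tnf), colony-stimulating factor, Lif and oncostatin M families, with the SOCS, NF-kB and Rel, and TRAF signalling genes, that are annotated on the minus strand. There were 98 such genes of 38483 listed. Another 106 genes with such names lie on the plus strand, and all of them were listed at 0 in every culture, as was each of the 19214 plus-strand genes. Ccl2, Il6, Cxcl12, Csf1r, Rela and Tnfrsf1a are among those, and nothing can be said here about them.

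MEFs are fibroblasts grown from minced mouse embryos, here of CD1 mice at embryonic day 14.5 after removal of the limbs, brain and internal organs. The 3 Nipbl+/- cultures were heterozygous for a knockout of Nipbl, which encodes a protein that loads cohesin onto chromosomes, and the 3 WT cultures came from WT littermates. The embryos were taken from 1 pregnant mouse. All 6 were at passage 3 with no other treatment, and their ribosome-depleted RNA was sequenced, with total counts from 20307454 to 25990783. Nipbl itself had 136 ± 8.26 CPM (WT) and 100.8 ± 0.505 CPM (Nipbl+/-; SD, n = 3 each; log2FC -0.43, adjusted p = 0.0213, edgeR QL test). CPM is the count scaled to a common library size after TMM normalization, log2FC is the log2 fold change of Nipbl+/- over WT MEFs with its standard error (SE), and the QL test is the quasi-likelihood test of edgeR over all tested genes.

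Chemokines and cytokines are secreted or membrane-bound signals that guide the movement, survival and activity of other cells. Most chemokines act on G protein-coupled receptors of leukocytes, interleukins and colony-stimulating factors act largely through JAK kinases and STAT factors that the SOCS proteins restrain, and TNF family ligands act through receptors that recruit TRAF adaptors and release NF-kB. Some of these genes are made mainly by leukocytes, such as Ccl3 and Tnf, while others are made by fibroblasts and related stromal cells, such as Csf1, Cxcl14 and Tnfrsf11b. The genes were assigned by hand from general knowledge as leukocyte-made (47 genes), fibroblast-made (11), signalling (16: SOCS, NF-kB and Rel, and TRAF) or other (24).

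Of the 98 genes, 11 had a count of 0 in all 6 cultures: Ccl1, Ccl24, Ccl26, Il3, Il4, Il9, Il13, Il20, Il21, Il24 and Il31. A count of 0 allows up to 3 reads in a culture, or 0.115 to 0.148 CPM over these libraries, for counting error only. Another 31 had counts, at most 34 in any culture, and were too low to be tested. The remaining 56 passed edgeR's filter on low counts. They carry 55 gene symbols, because Tnfrsf22 is listed under 2 identifiers that overlap. Of the 56, 18 overlap another annotated gene, and how their reads were divided is not known. The filter left 10 of the 11 fibroblast-made genes, all 16 signalling genes, 14 of the 24 other genes and 16 of the 47 leukocyte-made genes.

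Levels of different genes were compared as RPKM, the deposited value that divides the reads of a gene by its length and by library size. Tnfrsf12a, the receptor of the ligand TWEAK, was highest at 216.9 ± 6.84 RPKM in WT and 210.5 ± 13.2 RPKM in Nipbl+/- MEFs (SD, n = 3 each). Csf1, the growth factor of macrophages, followed at 86.3 ± 6.08 and 62.7 ± 5.25 RPKM. The chemokine Cxcl14 had 83.2 ± 2.66 and 31.4 ± 6.27 RPKM. Tnfrsf11b, or osteoprotegerin, the soluble decoy of the osteoclast factor Tnfsf11, had 55.4 ± 7.17 and 48.9 ± 1.16 RPKM. The WT ranges of Csf1 and Cxcl14 overlapped, so these 2 neighbours were not ordered, whereas Tnfrsf12a was above all other members in every culture. In all, 12 tested genes had a mean above 10 RPKM and 15 were under 1 RPKM. Of the 16 tested leukocyte-made genes, 0 were among the former and 8 among the latter, as the plot of levels by gene shows.

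**Figure D1:**
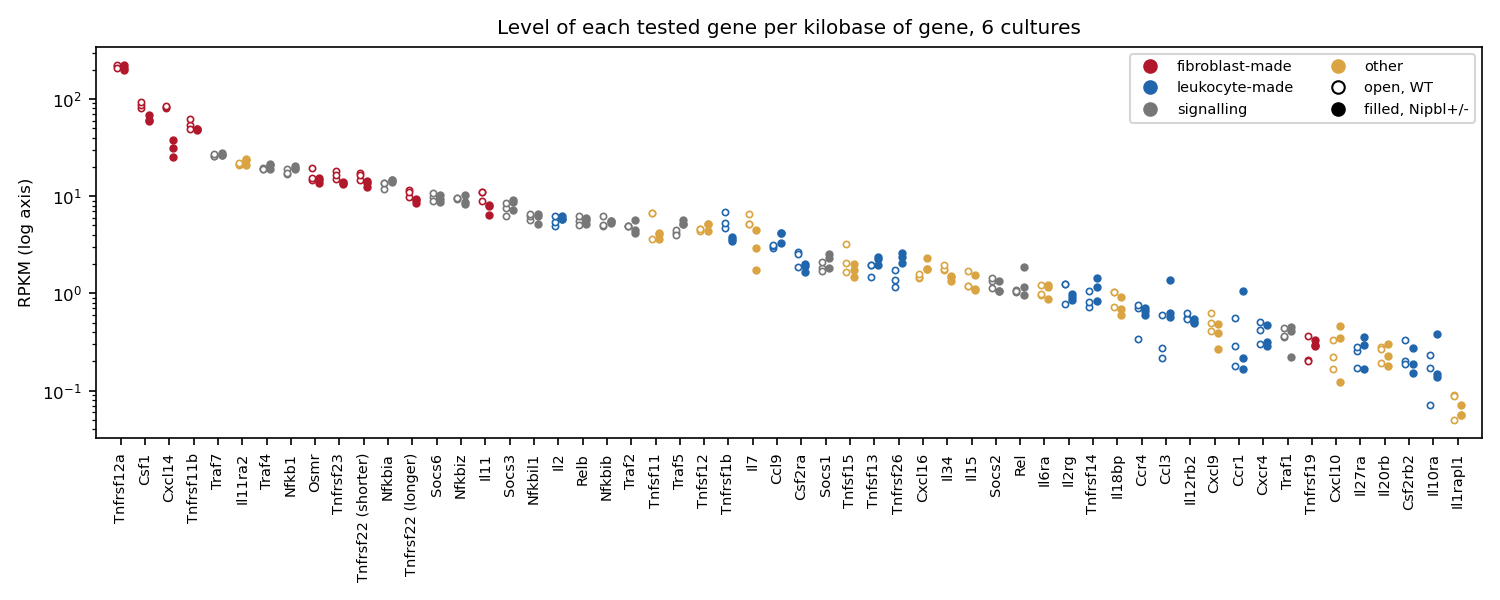
RPKM (log axis) of the 56 tested genes in each of 3 WT (open points) and 3 Nipbl+/- (filled points) cultures, ordered by mean level and colored by the kind of cell that makes the product. Tnfrsf12a, Csf1, Cxcl14 and Tnfrsf11b, all fibroblast-made, are the 4 highest, and Cxcl14 shows the widest gap between the genotypes among them.

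Cxcl14 and Csf1 were lower in Nipbl+/- MEFs, and no chemokine, cytokine, receptor or signalling gene was higher past the threshold of 0.05 on the adjusted p-value. Cxcl14 is a chemokine made by fibroblasts and epithelia, and Csf1 binds the receptor Csf1r and maintains macrophages and their precursors. These were 2 of 56 tested genes lower (3.57%), where 0.916% of all 9061 tested genes were lower, and 0 higher, where 1.04% of all passed in that direction. At an unadjusted p-value under 0.05, 12 of the 56 were lower and 4 were higher, where 7.95% and 8.98% of all tested genes were. With DESeq2 and with edgeR's exact test, 7 were lower and 1 was higher at the adjusted threshold. Of all 9061 tested genes, 212 were lower and 237 higher with DESeq2, and 213 and 218 with the exact test. In 12 of the 56 (21.4%) the 3 Nipbl+/- cultures were each below every WT culture, as in 10.8% of all tested genes. In 5 (8.93%) they were all above, as in 12.0% of all tested genes. The median log2FC was -0.09 over the 56 genes and -0.006 over all tested genes.

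The 250 bases before the start of each gene are shown because these were the 2 members that fell. Sequences are those of RefSeq for GRCm38.p6, the assembly also called mm10, read 5′ to 3′ on the minus strand up to the base before the start. Capitals mark matches to the NF-kB core GGACTTTCC, the GC box GGGCGG or the TATA box TATAAA on either strand, and no matches overlap in these windows.
Csf1, chr3:107760470-107760719: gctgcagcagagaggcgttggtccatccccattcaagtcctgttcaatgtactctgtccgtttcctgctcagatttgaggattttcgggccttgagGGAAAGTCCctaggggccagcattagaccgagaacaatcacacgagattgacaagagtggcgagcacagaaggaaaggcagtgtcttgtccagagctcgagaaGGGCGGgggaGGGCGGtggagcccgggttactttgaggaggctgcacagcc
Cxcl14, chr13:56296552-56296801: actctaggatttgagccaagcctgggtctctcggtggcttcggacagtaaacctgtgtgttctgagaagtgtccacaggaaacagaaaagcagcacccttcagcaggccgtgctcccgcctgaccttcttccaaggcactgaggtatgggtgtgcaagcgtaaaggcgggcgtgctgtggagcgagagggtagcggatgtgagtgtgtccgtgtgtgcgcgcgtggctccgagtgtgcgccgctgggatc
The Csf1 window holds the NF-kB core on the opposite strand, starting 154 bases before the start, and the GC box at 51 and 41 bases before it. The Cxcl14 window holds none of these letters. Of 32851 RefSeq promoter windows of this length, 93 (0.283%) hold the NF-kB core, 32.7% the GC box and 12.4% the TATA box. RefSeq windows were matched for 40 of the 55 tested symbols (43 windows). Of these, Csf1 and Nfkbia hold the NF-kB core, 20 windows (46.5%) the GC box and 6 (14%) the TATA box. A match is a description of letters and was not tested as a binding site.

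Cxcl14 (ENSMUSG00000021508, chromosome 13 of mm10 from 56288647 to 56296551) had 156.5, 162.0 and 159.7 CPM in the WT cultures. In the Nipbl+/- cultures it had 58.9, 70.4 and 45.9 CPM. The genotypes did not overlap, and the WT cultures were the more alike. The means were 159.4 ± 2.79 CPM (WT) and 58.4 ± 12.2 CPM (Nipbl+/-; SD, n = 3 each), or 36.7% of WT by the fit (log2FC -1.45, SE 0.13, adjusted p = 0.00685, edgeR QL test). It was past the threshold in 5 of 6 fits that each left out a culture, and its adjusted p-value was 0.0742 without Nipbl+/- replicate 1.

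Csf1 (ENSMUSG00000014599, chromosome 3 from 107741048 to 107760469) had 450.9, 481.8 and 497.1 CPM in WT and 327.3, 318.9 and 363.0 CPM in Nipbl+/- cultures. The 3 Nipbl+/- cultures were again all below the WT cultures, with a smaller change. The means were 476.6 ± 23.5 and 336.4 ± 23.4 CPM (SD, n = 3 each; 70.6% of WT, log2FC -0.50, SE 0.06, adjusted p = 0.0188, edgeR QL test). With single cultures left out, Csf1 passed in 3 of 6 fits. Its adjusted p-value in edgeR was 0.0755 without WT replicate 1, 0.0842 without Nipbl+/- replicate 1 and 0.0755 without Nipbl+/- replicate 2. The receptor of Csf1 is on the plus strand, and Il34, the other ligand of that receptor and named here after its values were seen, had 3.77 ± 0.150 CPM (WT) and 2.88 ± 0.218 CPM (Nipbl+/-; log2FC -0.39, adjusted p = 0.253, edgeR). The genotypes did not overlap for Il34 either, but the difference did not pass the threshold.

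**Figure D2:**
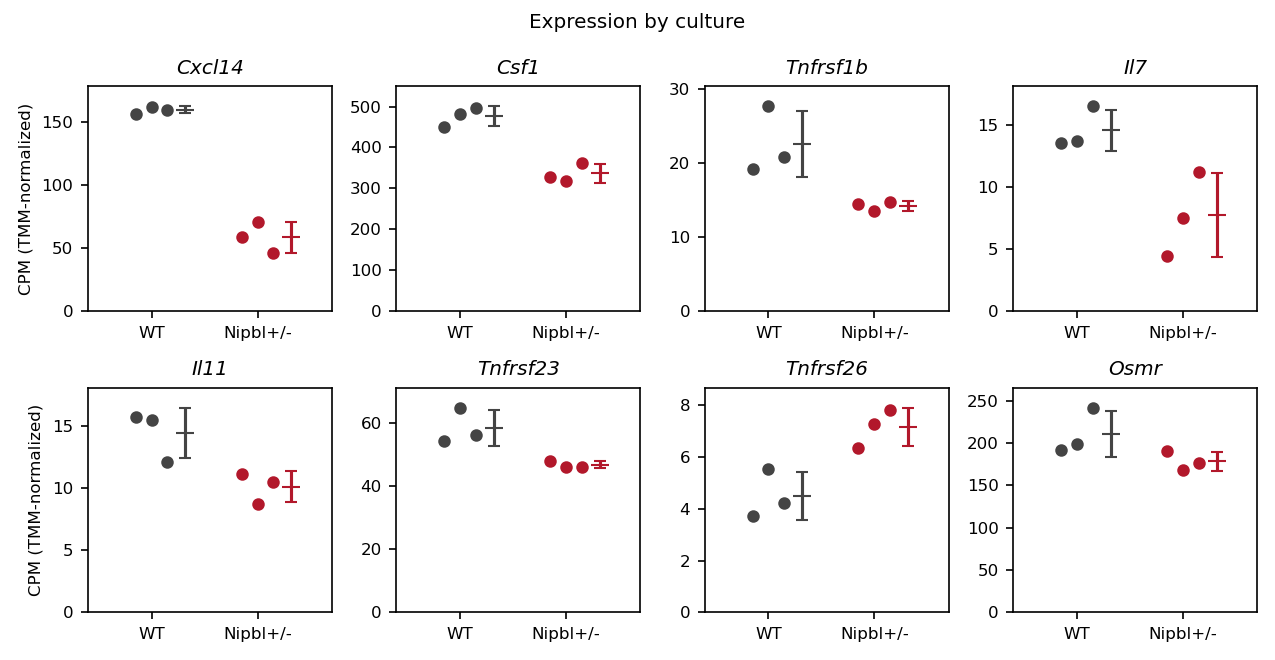
TMM-normalized CPM of 8 genes in each WT (grey) and Nipbl+/- (red) culture, with the mean and SD of 3 cultures beside the points. Cxcl14 and Csf1 are past the threshold, the other 6 are not, and in none of the 8 panels do the 2 genotypes overlap.

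Cxcl14 and Csf1 belong to the fibroblast-made genes, of which most stood below the WT level. Of the 10 tested entries, 9 had a log2FC below 0 and 1 (Tnfrsf19, 0.21, named after its value was seen) above it, with a median of -0.30, beside -0.006 for all genes. In this list, 8 of the 10 entries (80%), which are 7 genes as Tnfrsf22 counts double, had every Nipbl+/- culture below the WT cultures, beside 10.8% of all tested genes. This share depends on the list, which was assigned by hand with earlier results of these data known. Tnfrsf22 and Tnfrsf23 are neighbours on chromosome 7, and the nearby Tnfrsf26 (log2FC 0.67) was assigned as leukocyte-made. Summed over the list, WT cultures had 1330, 1385 and 1436 CPM and Nipbl+/- cultures 1060, 1020 and 1050 CPM. Most of this difference lies in Csf1 (means 476.6 and 336.4 CPM) and Cxcl14 (159.4 and 58.4 CPM), so the sum mainly repeats these 2 genes. The highest culture was a WT culture for each of the 10 entries. Over all tested genes, WT replicates 1, 2 and 3 were the highest for 16.3%, 17.8% and 19.2%. This count largely restates the lower Nipbl+/- values and is no separate result. The median lay between -0.36 and -0.28 with each culture left out in turn. In bulk RNA, fewer cells of a type and less RNA per cell cannot be told apart.

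Other fibroblast-made signals and receptors did not pass the threshold in edgeR's quasi-likelihood test. Interleukin 11 (Il11), which signals through the shared gp130 receptor chain in stromal cells, had 15.7, 15.5 and 12.2 CPM in WT and 11.1, 8.71 and 10.6 CPM in Nipbl+/- cultures (log2FC -0.52, SE 0.14, adjusted p = 0.106). The lowest WT culture was close to the highest Nipbl+/- culture, without overlap, and Il11 was past the threshold with DESeq2 (adjusted p = 0.0338) and with edgeR's exact test (adjusted p = 0.0362). Osmr, the specific receptor chain for oncostatin M, had 210.7 ± 27.1 CPM (WT) and 178.4 ± 11.1 CPM (Nipbl+/-; SD, n = 3 each; log2FC -0.24, adjusted p = 0.243). Tnfrsf11b, named after its values were seen, had 163.7 ± 17.7 and 140.6 ± 2.60 CPM (log2FC -0.22, adjusted p = 0.204). Tnfrsf12a, the most abundant member, had 219.6 ± 11.5 and 206.8 ± 14.5 CPM with overlapping genotypes (log2FC -0.09, adjusted p = 0.564). The untested member of the list, Il13ra2, a decoy receptor for interleukin 13 named after its values were seen, had counts of 16, 8 and 8 in WT and 13, 2 and 5 in Nipbl+/- cultures.

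**Figure D3:**
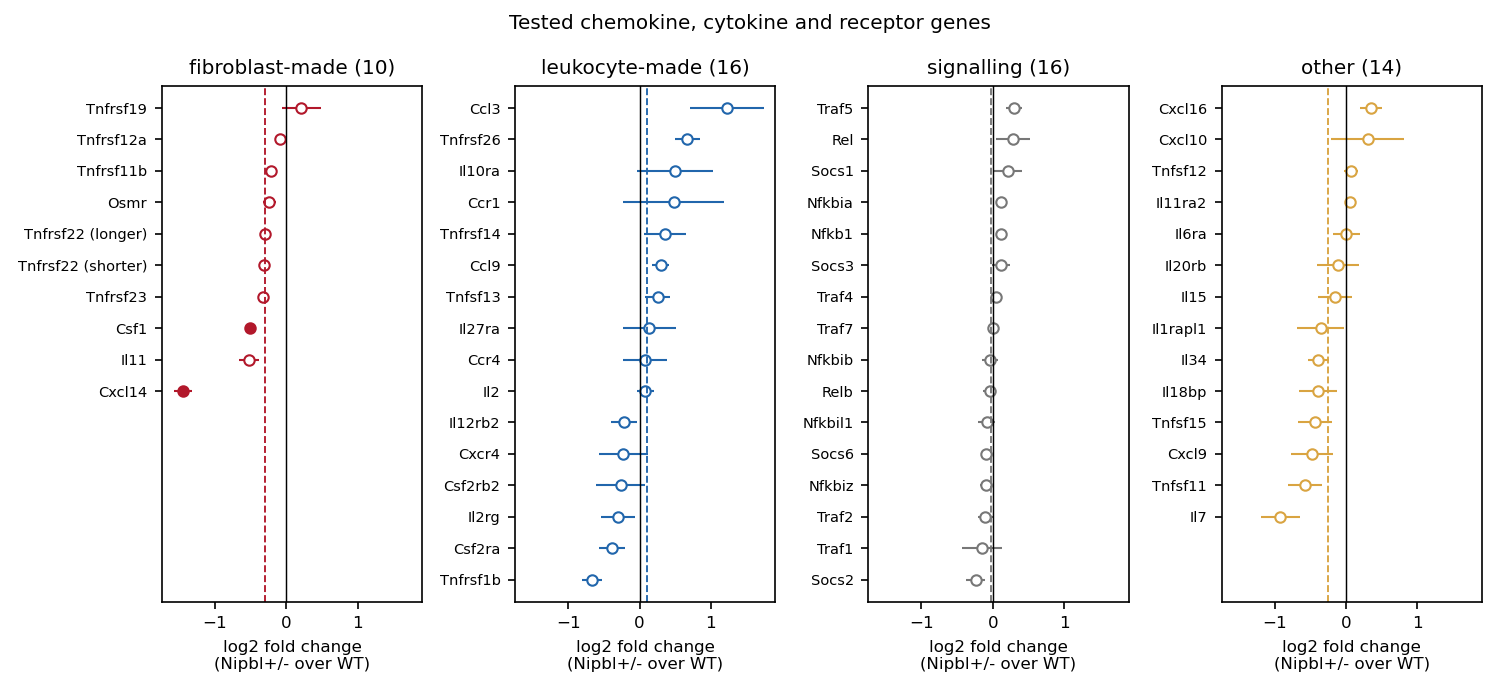
Log2 fold change of Nipbl+/- over WT MEFs with its SE for each of the 56 tested genes, in 4 panels by the kind of cell that makes the product. Filled points are past the threshold (Cxcl14 and Csf1), and dashed lines are the medians of the panels: -0.30 for fibroblast-made, 0.11 for leukocyte-made, -0.02 for signalling and -0.26 for other genes.

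Among TNF receptors, 3 related genes lie together on chromosome 7. Tnfrsf23 and Tnfrsf22 are decoy receptors of the death ligand TRAIL, and Tnfrsf26 is a related receptor of poorly known function. Tnfrsf23 (143665809 to 143685872), named after its values were seen, had 54.2, 64.7 and 56.3 CPM in WT and 48.1, 46.0 and 46.2 CPM in Nipbl+/- cultures (log2FC -0.32, adjusted p = 0.0656, edgeR). The longer entry of Tnfrsf22 (143634808 to 143649661), also named after its values were seen, had 44.8, 52.8 and 48.1 CPM in WT and 37.4, 40.6 and 40.4 CPM in Nipbl+/- cultures (log2FC -0.30, adjusted p = 0.0827, edgeR). For both receptors the Nipbl+/- cultures lay below the WT cultures without overlap. Neither passed the threshold in edgeR's quasi-likelihood test, while both did in its exact test (adjusted p = 0.0227 and 0.0465) and in DESeq2 (adjusted p = 0.0177 and 0.0404). The shorter, overlapping entry of Tnfrsf22 passed in none of them (log2FC -0.305, adjusted p = 0.103 in the quasi-likelihood test). Tnfrsf26 (143607685 to 143627845) stood the other way, with 3.72, 5.52 and 4.22 CPM in WT and 6.36, 7.26 and 7.83 CPM in Nipbl+/- cultures (log2FC 0.67, SE 0.17, adjusted p = 0.0969, edgeR QL test). Its genotypes did not overlap either, and it too passed in the exact test (adjusted p = 0.0191) and in DESeq2 (adjusted p = 0.0382). How reads of these similar genes were assigned is not known.

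Tnfrsf1b, the TNF receptor found mainly on leukocytes and endothelium, had 19.2, 27.6 and 20.8 CPM in WT and 14.4, 13.5 and 14.7 CPM in Nipbl+/- cultures (chromosome 4 from 145213463 to 145246870). The genotypes did not overlap, and WT replicate 2 stood above the other WT cultures. Its log2FC was -0.67 (SE 0.14, adjusted p = 0.0511, edgeR QL test), and the adjusted p was 0.0378 in edgeR without WT replicate 2. Tnfrsf14, a receptor of the ligand Light, had a log2FC of 0.36 (adjusted p = 0.591, edgeR). Of the 9 tested entries of TNF receptors, 6 were below and 3 above 0, with a median of -0.22.

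The TNF ligands did not pass the threshold. Tnfsf11, the osteoclast factor RANKL, had 16.1, 16.0 and 8.31 CPM in WT and 9.74, 8.29 and 9.12 CPM in Nipbl+/- cultures (log2FC -0.58, adjusted p = 0.269, edgeR). WT replicate 3 was at the level of the Nipbl+/- cultures, and without it the log2FC was -0.83 and the adjusted p-value 0.0291. Tnfsf13, also called APRIL, a survival factor of B cells, had 3.08 ± 0.436 and 3.67 ± 0.344 CPM (SD, n = 3 each; log2FC 0.25, adjusted p = 0.514, edgeR). It overlaps Tnfsf12 on the same strand. Tnf, the founding ligand, had too few reads to be tested.

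Of 5 tested interleukins, 4 had a log2FC below 0. Interleukin 7 (Il7), a survival factor of lymphocytes made by stromal cells, had 13.6, 13.8 and 16.5 CPM in WT and 4.42, 7.53 and 11.2 CPM in Nipbl+/- cultures (chromosome 3 from 7572077 to 7613427). No cultures overlapped, but the Nipbl+/- cultures were spread widely, and the log2FC of -0.92 (SE 0.28) did not pass the threshold (adjusted p = 0.14, edgeR QL test), while it did with DESeq2 (adjusted p = 0.00816) and with edgeR's exact test (adjusted p = 0.0391). Il7 overlaps a plus-strand gene. Interleukin 2 (Il2), a growth factor of T cells, was listed at 6.64 ± 0.608 CPM (WT) and 7.01 ± 0.134 CPM (Nipbl+/-; SD, n = 3 each; log2FC 0.08, adjusted p = 0.791, edgeR). Il2 had the highest mean RPKM of the leukocyte-made genes, and it overlaps Adad1 on the plus strand, whose own count is listed at 0. The T cell cytokines Il3, Il4, Il9, Il13 and Il21 had no reads in any culture.

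The tested leukocyte-made genes showed no common direction. Of the 16 tested, 10 were above 0 and 6 below 0 in log2FC, none passed the threshold in edgeR's quasi-likelihood test, and at an unadjusted p-value under 0.05 there were 3 higher (18.8%, beside 8.98% of all genes) and 1 lower (6.25%, beside 7.95%). With DESeq2 and with edgeR's exact test, Tnfrsf26 passed as higher and Tnfrsf1b as lower, and these are the 2 genes whose place among the leukocyte-made is least certain. Their median log2FC was 0.11, but -0.04 without Nipbl+/- replicate 2. Summed over the list, WT cultures had 62.7, 71.2 and 63.5 CPM and Nipbl+/- cultures 63.0, 68.3 and 60.3 CPM, so the genotypes overlapped. The genotypes did not overlap for 4 of the 16, with Nipbl+/- below WT for 2 (Tnfrsf1b and Il12rb2) and above WT for 2 (Ccl9 and Tnfrsf26). Each is 12.5% of the list, beside 10.8% and 12.0% of all tested genes, and so near the background. Of the 47 leukocyte-made genes, all but these 16 were too low for the test. Among those, Ccl6, Tnf, Tnfsf8 and Il1b had every Nipbl+/- culture above every WT culture, at few reads, and none lay below WT in this way. The share of such genes among all genes too low for the test was not counted, so no direction is read from them. With no filter on low counts, the adjusted p-values of these genes were 0.105, 0.149, 0.278 and 0.528 (edgeR QL test). No test was made of the difference between the fibroblast-made and the leukocyte-made genes.

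The leukocyte chemokines Ccl3, Ccl6 and Ccl9 lie within a short stretch of chromosome 11. Ccl9 (83572919 to 83578636), which attracts dendritic cells and macrophage precursors, had 9.53, 10.1 and 9.79 CPM in WT and 13.0, 12.9 and 10.1 CPM in Nipbl+/- cultures (log2FC 0.29, SE 0.12, adjusted p = 0.279, edgeR). Nipbl+/- replicate 3 was at the level of the WT cultures. Ccl3 (83647844 to 83649355), or MIP-1 alpha, had only 5, 4 and 10 reads in WT and 10, 28 and 10 in Nipbl+/- cultures. Its log2FC was 1.22 (SE 0.52, adjusted p = 0.280, edgeR), and 0.68 without Nipbl+/- replicate 2. Ccl6 (83587882 to 83593087), named after its values were seen and too low for the test, had 7, 6 and 6 reads in WT and 22, 34 and 9 in Nipbl+/- cultures. Nipbl+/- replicate 2, also the culture with the highest total count, had the most reads of each of these 3 chemokines. Scaled to library size, Ccl9 was highest in Nipbl+/- replicate 1.

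Several other leukocyte-made genes with few reads, of which Tnf and Il7r were named after their values were seen, also had most reads in Nipbl+/- replicate 2. Tnf had 4, 1 and 5 reads in WT and 8, 20 and 12 in Nipbl+/- cultures. Scaled to library size, every Nipbl+/- culture was above every WT culture for Tnf. The interleukin 7 receptor Il7r had 5, 3 and 6 reads in WT and 9, 19 and 4 in Nipbl+/- cultures. Neither gene had enough reads for the test. Ccr1, a receptor of Ccl3 on myeloid cells, had 12, 38 and 18 reads in WT and 14, 80 and 10 in Nipbl+/- cultures. Its log2FC was 0.48 (adjusted p = 0.782, edgeR) with all cultures and -0.88 without Nipbl+/- replicate 2, so its direction rests on that culture. The interleukin 10 receptor Il10ra had 14, 6 and 18 reads in WT and 11, 36 and 11 in Nipbl+/- cultures, and its log2FC likewise went from 0.50 to -0.18 without that culture. By contrast, Il1b, which encodes interleukin 1 beta and was also named after its values were seen, had 0 reads in each WT and 1 in each Nipbl+/- culture, and at this depth no difference in it was detectable.

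**Figure D4:**
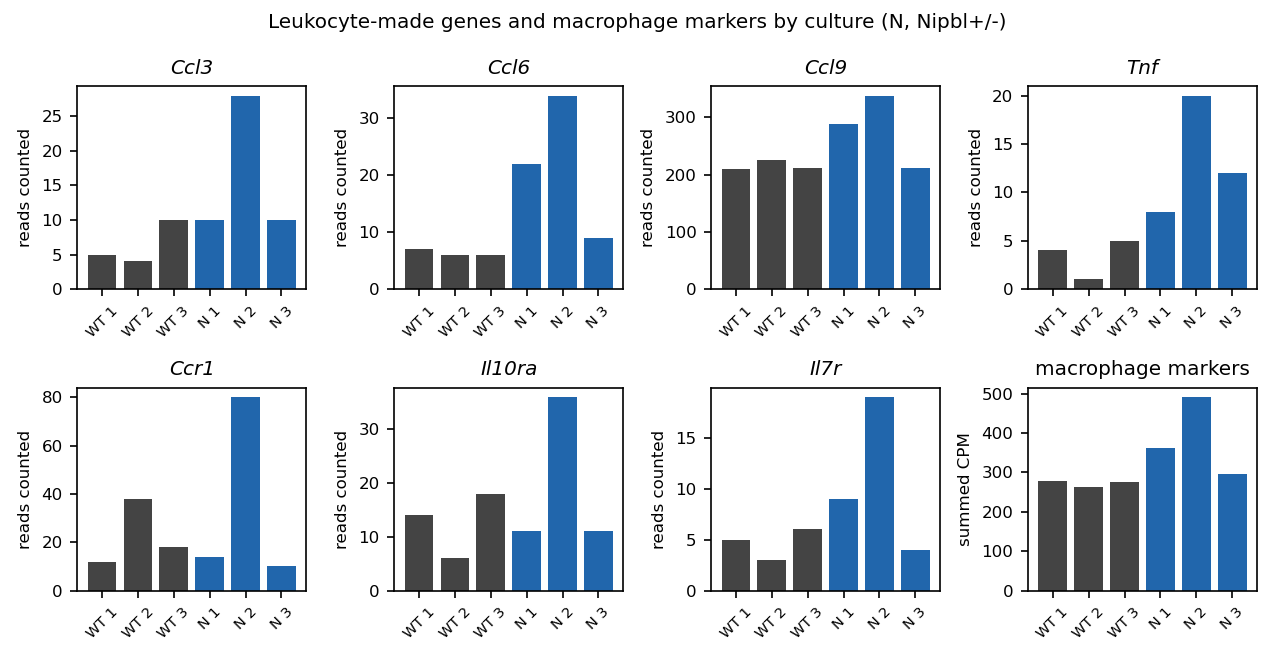
Reads counted on 7 leukocyte-made genes, and the summed TMM-normalized CPM of macrophage markers, in each of 3 WT (grey) and 3 Nipbl+/- (blue, N) cultures. Reads are not scaled to library size, and Nipbl+/- replicate 2, the largest library, is the highest bar in all 8 panels, with 28 reads of Ccl3, 80 of Ccr1 and a marker sum of 491.1 CPM. The 7 genes are a selection. In CPM, this culture was highest for 4 of the 16 tested leukocyte-made genes, as was WT replicate 2, and Ccl9 was highest in Nipbl+/- replicate 1.

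Macrophage markers were also highest in that culture. Of 33 marker genes listed, 12 are on the plus strand and at 0, 21 are on the minus strand with counts, and 20 were tested. Of these 20, 18 had a log2FC above 0 and 15 (75%, beside 8.98% of all genes) had an unadjusted p-value under 0.05 in that direction, with a median of 1.03, although none passed the threshold in edgeR's quasi-likelihood test. With DESeq2 and with edgeR's exact test, 9 of the 20 were higher, beside 237 and 218 of all 9061 genes. Their sum was 277.5, 263.5 and 276.6 CPM in WT and 360.8, 491.1 and 296.3 CPM in Nipbl+/- cultures. Nipbl+/- replicate 2 was the highest culture for 18 of the 20 markers, 4 of the 16 leukocyte-made genes, 0 of the 10 fibroblast-made entries and 15.6% of all tested genes. WT replicate 2 was also the highest for 4 of the 16 leukocyte-made genes. Without Nipbl+/- replicate 2, 17 of the 20 markers were still above 0, with a median of 0.57. The part of the macrophage markers in the values of Ccl3, Ccl6, Tnf, Ccr1 and Il10ra was not tested.

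Markers of other leukocytes were near the lower limit. Of 10 minus-strand lymphoid markers, Cd3e, Cd79b and Gzma were at 0 and 1 was tested (Lck, log2FC 0.08), and the sum was at most 1.38 CPM in any culture. No neutrophil marker had enough reads to be tested. Of 9 minus-strand mast cell markers, Cpa3, Fcer1a and Mrgprb2 were at 0 and Ms4a2 alone was tested (log2FC 1.99, adjusted p = 0.0559 in edgeR, and past the threshold with DESeq2 and the exact test). Fibroblast markers were abundant, at 15430 to 18290 CPM in WT and 17300 to 19160 CPM in Nipbl+/- MEFs summed over 5 genes, most of it fibronectin (Fn1), and none of the 5 passed the threshold in edgeR's quasi-likelihood test, while 1 was lower with DESeq2 and the exact test. At an unadjusted p-value under 0.05, 1 of the 5 was higher and 1 lower. The other 14 of 19 fibroblast markers are on the plus strand and at 0. The 3 tested endothelial and 3 tested epithelial markers did not pass it with any of these tools, and at an unadjusted p-value under 0.05 only 1 higher and 1 lower epithelial marker were found.

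The leukocyte receptors Csf2ra, Csf2rb2, Il2rg, Il12rb2, Il27ra, Cxcr4 and Ccr4 did not pass the threshold in edgeR's 2 tests or DESeq2. For Il27ra and Cxcr4, DESeq2 gave no adjusted p-value. Csf2ra, the receptor of the granulocyte and macrophage factor GM-CSF, had 4.58 ± 0.791 CPM (WT) and 3.51 ± 0.403 CPM (Nipbl+/-; SD, n = 3 each; log2FC -0.38, adjusted p = 0.333). Csf2rb2, a beta chain of the interleukin 3 receptor in mice, had a log2FC of -0.26 (adjusted p = 0.752). Il2rg, the common gamma chain of several interleukin receptors, had -0.30 (adjusted p = 0.572), and Il12rb2, a chain of the interleukin 12 receptor, had -0.22 (adjusted p = 0.592). Il27ra, the interleukin 27 receptor, stood at 0.14 (adjusted p = 0.894). The chemokine receptors Cxcr4, which binds Cxcl12, and Ccr4 had log2FC values of -0.23 (adjusted p = 0.789) and 0.08 (adjusted p = 0.929).

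The other interleukin receptors did not pass the threshold either. Il11ra2, an interleukin 11 receptor gene, had the highest mean RPKM of the 9 tested interleukin receptor genes. It was at 21.4 ± 0.688 RPKM in WT and 22.9 ± 1.67 RPKM in Nipbl+/- MEFs (SD, n = 3 each; log2FC 0.06, adjusted p = 0.741, edgeR). Its paralog Il11ra1 is on the plus strand and listed at 0, and how reads of the 2 genes were assigned is not known. Il18bp, the secreted antagonist of interleukin 18, had 1.38 ± 0.252 and 1.05 ± 0.221 CPM (log2FC -0.40, adjusted p = 0.5, edgeR). Of 9 tested interleukin receptor genes, 5 were below and 4 above 0.

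The signalling genes stayed within a narrow range. The 16 SOCS, NF-kB and Rel, and TRAF genes had log2FC values from -0.24 to 0.29 with a median of -0.02, and none passed the threshold in edgeR's 2 tests or DESeq2, with 1 (Traf5) under an unadjusted p-value of 0.05. Their sum was 596.3 to 603.0 CPM in WT and 593.9 to 615.0 CPM in Nipbl+/- MEFs. Traf7, the most abundant of them per kilobase, had 162.3, 162.7 and 161.2 CPM in WT and 161.8, 160.4 and 163.9 CPM in Nipbl+/- cultures (adjusted p = 0.999). The genotypes overlapped for Traf7, while for Traf5, an adaptor of several TNF receptors, they did not. Traf5 had 8.76, 9.48 and 8.07 CPM in WT and 11.4, 10.5 and 10.3 CPM in Nipbl+/- cultures (log2FC 0.29, SE 0.11, adjusted p = 0.234, edgeR).

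Subunits and inhibitors of these pathways did not pass the threshold. Nfkb1, the p105 and p50 subunit of NF-kB, had 88.8 ± 6.50 CPM (WT) and 95.98 ± 5.23 CPM (Nipbl+/-; SD, n = 3 each; log2FC 0.11, adjusted p = 0.450, edgeR). Nfkbia, the inhibitor I kappa B alpha and named after its values were seen, had 21.4 ± 1.60 and 23.2 ± 0.317 CPM, with all Nipbl+/- cultures above all WT cultures (log2FC 0.11, adjusted p = 0.500, edgeR). Socs2, a brake on growth hormone signalling, had the lowest log2FC of the signalling genes at -0.24 (adjusted p = 0.422, edgeR), and Socs6, the most abundant SOCS gene per kilobase, had -0.09 (adjusted p = 0.575, edgeR).

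Other genes of these pathways were read from the same fit. Of 21 minus-strand genes of the NF-kB and TNF pathway, 16 were above and 5 below 0 with a median of 0.04. Those above were 76.2%, beside 48.4% of all tested genes. None passed the threshold in edgeR's quasi-likelihood test. At an unadjusted p-value under 0.05, 2 were higher (9.52%, beside 8.98% of all genes) and 1 lower (4.76%, beside 7.95%). With DESeq2 and with edgeR's exact test, 1 was lower, beside 212 and 213 of all 9061 genes. Map3k14, the kinase NIK of the noncanonical NF-kB pathway, had 22.97 ± 3.37 and 17.1 ± 0.722 CPM (SD, n = 3 each; log2FC -0.43, adjusted p = 0.102), and Tbk1, a kinase of innate sensing, had a log2FC of 0.14 (adjusted p = 0.153). Of 14 tested JAK-STAT genes, 7 were above and 7 below 0, with a median of -0.004. None passed the threshold in edgeR's 2 tests or DESeq2. At an unadjusted p-value under 0.05, 1 was higher and 1 lower (7.14% each, beside 8.98% and 7.95% of all genes). The phosphatase Ptpn6, found mostly in blood cells, had 0.85 (adjusted p = 0.227) and was highest in Nipbl+/- replicate 2, and the kinase Jak1 had -0.12 (adjusted p = 0.294).

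Of 14 tested genes of the inflammatory response, 8 were above and 6 below 0 with a median of 0.01, and 1 passed the threshold as lower (7.14%, beside 0.916% of all genes). At an unadjusted p-value under 0.05 there were 2 higher (14.3%, beside 8.98% of all genes) and 3 lower (21.4%, beside 7.95%). The gene past the threshold was Ptges, the prostaglandin E synthase, which fell from 27.6 ± 1.12 to 16.1 ± 3.02 CPM (SD, n = 3 each; log2FC -0.79, SE 0.12, adjusted p = 0.0261, edgeR). In single cultures it had 27.5, 26.5 and 28.8 CPM in WT and 14.5, 14.1 and 19.5 CPM in Nipbl+/- MEFs, without overlap. It was not past the threshold without WT replicate 1, WT replicate 3, Nipbl+/- replicate 1 or Nipbl+/- replicate 2. Cd14, the lipopolysaccharide coreceptor of monocytes, had a log2FC of 0.58 (adjusted p = 0.225, edgeR).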

How the data were processed

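The RNA-seq data covered 6 MEF cultures, 3 of each genotype. The authors isolated total RNA with TRIzol, removed ribosomal RNA, and aligned reads to mm10 with TopHat 2.0.10 and the Ensembl 72 annotation. The counting tool is not given in the sources used here. They deposited for each culture a raw read count per gene, used for all tests, and an RPKM value, used only to compare levels between genes.

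In edgeR 4.0.16 (R 4.3.3), filterByExpr with a minimum count of 10 kept 9061 genes, libraries were scaled by TMM, and the genotypes were compared by quasi-likelihood (glmQLFit, glmQLFTest) with no covariate. P-values were adjusted over all tested genes by Benjamini-Hochberg, and 0.05 was the threshold. Each SE was derived from the log2FC and its F statistic. Alternatives were DESeq2 1.42.0, the exact test of edgeR, the size factors of DESeq2 in edgeR, no filter, the replicate number as a block, and each culture left out in turn. The script was tested on simulated data.

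Replicates of a genotype differed beyond sampling noise (chi-square per degree of freedom 10.1 to 34.6, over genes with at least 20 reads in the cultures compared). Pooled over those genes, the number of cultures limits the precision more than the depth. The pooled value does not settle this for genes with few reads. The paper calls the 3 cultures of each genotype biological replicates, while the labels do not name the embryo of each. P-values measure the spread between these cultures, and how much of it lies between embryos is not known. The members and lists were chosen with earlier results of these data known. Genes were named if past the threshold, tested and leukocyte-made, among the 3 largest changes in each direction, or the most abundant or of smallest p-value in their family. Other members described with values of their own were named after their values were seen. Coordinates are those of the files.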

Additional observations from a re-analysis of the deposited data

How the results depend on the processing

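The directions of the median log2 fold change of the fibroblast-made genes and of Cxcl14 and Csf1 were the same under all 11 alternatives. Cxcl14 was past the threshold in 10 of them and Csf1 in 8. Among the tested members, 0 were higher and 2 lower, and among all genes 94 and 83. With DESeq2, 1 member was higher and 7 were lower (all genes 237 and 212), and with edgeR's exact test 1 and 7 (all genes 218 and 213). In both the higher gene was Tnfrsf26 and the 7 lower were Cxcl14, Csf1, Tnfrsf1b, Tnfrsf23, Il7, Il11 and the longer entry of Tnfrsf22. The shorter entry of Tnfrsf22 passed in neither. With no filter on low counts 4 members were lower, with Tnfrsf1b and Tnfrsf23 added (all genes 173 higher and 152 lower). The size factors of DESeq2 in edgeR changed none of these counts. With the replicate number as a block, 34 genes were higher and 52 lower in all, while the members remained at 0 and 2 (adjusted p = 0.0174 for Cxcl14 and 0.029 for Csf1 in edgeR). Same-numbered cultures did not deviate together (correlations across genes -0.06, -0.04 and -0.14) and no culture correlated best with its own number, so the numbers were not taken as pairs.

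With each culture left out in turn, 0 to 1 members were higher and 0 to 3 lower, and over all genes 1 to 130 were higher and 2 to 138 lower. No member was lower without Nipbl+/- replicate 1, and 1 was lower without WT replicate 1 or Nipbl+/- replicate 2 (Cxcl14). Without WT replicate 2, Tnfrsf26 was higher and Tnfrsf1b lower, and without WT replicate 3, Tnfsf11 was lower. The cause of these shifts was not tested. Depth limits the 31 members with at most 34 reads in any culture, most of them leukocyte-made.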
